A study of Mus musculus with 4 samples.

Results

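Cytosolic ribosomal protein genes were the rows of the deposited table whose symbol is Rpl or Rps followed by a number and an optional suffix, together with Rplp0, Rplp1, Rplp2 and Rpsa. The rule found 86 rows of 14382, of which 54 encode proteins of the large subunit and 32 of the small subunit. They carry 84 different symbols, because 1 row each with the symbols Rpl37 and Rpl32 is, by its Entrez number, the gene that RefSeq calls Rpl37rt and Rpl32l. The 86 rows comprise 77 common genes, 3 tissue-restricted paralogs (Rpl3l, Rpl10l and Rpl39l), 4 other paralogs (Rpl22l1, Rps27l, Rpl36al and Rpl7l1) and these 2 further rows. No minimum level was set. A test was run for 85 of the rows and not for Rpl4, whose reads per library could not be settled.

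All cells were mouse embryonic stem cells (ESCs) of the genotype Arid1a f/f:CreERT2, in which Arid1a, a subunit gene of the BAF chromatin remodelling complex, has floxed alleles and Cre recombinase is switched on by 4-hydroxytamoxifen (4-OHT). Irradiated mouse embryonic fibroblasts served as feeders for both groups, in medium that held LIF, serum and serum replacement. The treated group received 1 µM 4-OHT for 24 hours and the control group ethanol. RNA was collected at 72 hours, with 2 polyA libraries per group, so the comparison asks what is altered when Arid1a is deleted. No group analysed here received 4-OHT without CreERT2 or without floxed alleles, so 4-OHT, active Cre and the deletion cannot be told apart. The sources used here do not give the promoter of CreERT2 or the number of clones. The labels name the TruSeq RNA v2 and TruSeq Stranded mRNA kits without saying which library had which, so kit and treatment cannot be told apart. Nothing states that the libraries of a group were separate cultures, so p-values measure the spread between these libraries, which may be technical.

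Each cytosolic ribosome carries one copy of nearly every ribosomal protein, arranged on ribosomal RNA in a large subunit, which forms peptide bonds, and a small subunit, which reads the mRNA. The mRNAs of these proteins typically begin with a C followed by a run of pyrimidines, the terminal oligopyrimidine (TOP) sequence, through which mTOR and LARP1 control their translation. A few proteins have paralogs with a narrower expression, such as RPL10L and RPL39L in male germ cells and RPL3L in heart and skeletal muscle.

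Reads were recovered for each library from the group means, and each group has a library A and a library B. The recovered totals lay between 6188378 and 7012664 reads, and 1 read was worth 0.142 to 0.159 CPM (reads scaled to library size). Arid1a had 517 and 502 CPM in ethanol and 241 and 213 CPM with 4-OHT, and it fell by 1.16 on the log2 scale (limma, adjusted p = 7.27e-06). The summed CPM of 10 ESC markers was 4892 and 4804 in ethanol and 5024 and 5139 with 4-OHT. Of these 10, 4 passed an adjusted p of 0.05 in limma (40%, against 9.46% of all tested genes). Nanog and Tdgf1 were higher (log2 fold change 0.36 and 0.30), and Esrrb and Sox2 were lower (-0.27 and -0.22). The sum does not show these opposite changes. The summed CPM of 9 fibroblast markers was 136 and 133 in ethanol and 163 and 157 with 4-OHT. Of the 9, 5 were lower with 4-OHT without passing. Col1a2 and Thy1 passed, both higher, and Col1a2 went from 20.8 to 45.0 CPM. Without Col1a2 the sum was 116 and 111 CPM in ethanol and 116 and 115 CPM with 4-OHT, which overlapped. Lum, Dcn and Postn were not analysed here.

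Of the 85 ribosomal protein genes tested, 1 was called higher with 4-OHT and 0 lower at an adjusted p of 0.05 (limma on log2(CPM + 1), adjusted over all tested genes). This is 1.18%, where 9.46% of all 14376 tested genes (5.24% higher and 4.22% lower) and 12.2% of the 2647 genes with a mean of at least 100 CPM were called. The gene called was Rpl39l, which encodes the germ cell paralog of RPL39, a protein of the peptide exit tunnel. Without the adjustment, 4 of 85 ribosomal protein genes had a p under 0.05, against 3441 of all 14376 tested genes. edgeR called 4 of 84 (Rpl39l, Rpl10l and Rpl36 higher and Rpl28 lower), against 15.8% of all genes it tested. DESeq2 called Rpl39l alone, against 5.06% of all genes it tested. With 1 library left out, limma called 5 without ethanol A, where it called 7.17% of all genes, 2 without ethanol B (7.16% of all genes) and 0 without either 4-OHT library (0% of all genes).

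Most of the other genes lay near 0. The median log2 fold change (on the log2(CPM + 1) scale, as are all fold changes here unless a tool is named) was -0.01 over the ribosomal protein genes and -0.00155 over all tested genes. The interquartile range was 0.0844, compared with 0.278 over all tested genes and 0.154 over the genes of at least 100 CPM. A range as narrow was not particular to these genes: it was 0.0828 over 38 translation factors and 0.0891 over 14 regulators of translation. Over 77 mitochondrial ribosomal protein genes it was 0.165. The sign of the median depended on single libraries: it was 0.05 without 4-OHT A and -0.09 without 4-OHT B. In 76 of 85 the fold change lay within 0.15 of 0. This held for 7580 of all 14376 tested genes and 1990 of the 2647 genes of at least 100 CPM. In 73 of 85 the 95% interval lay within 0.5 of 0, against 8222 of 14376 and 2518 of 2647 in the same sets. The interval lay there in 73 of 77 mitochondrial ribosomal protein genes and 38 of 38 translation factors. The 2 groups of libraries did not overlap for 25 of 85 genes (29.4%), whereas they did not overlap for 52.1% of all tested genes.

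**Figure D1:**
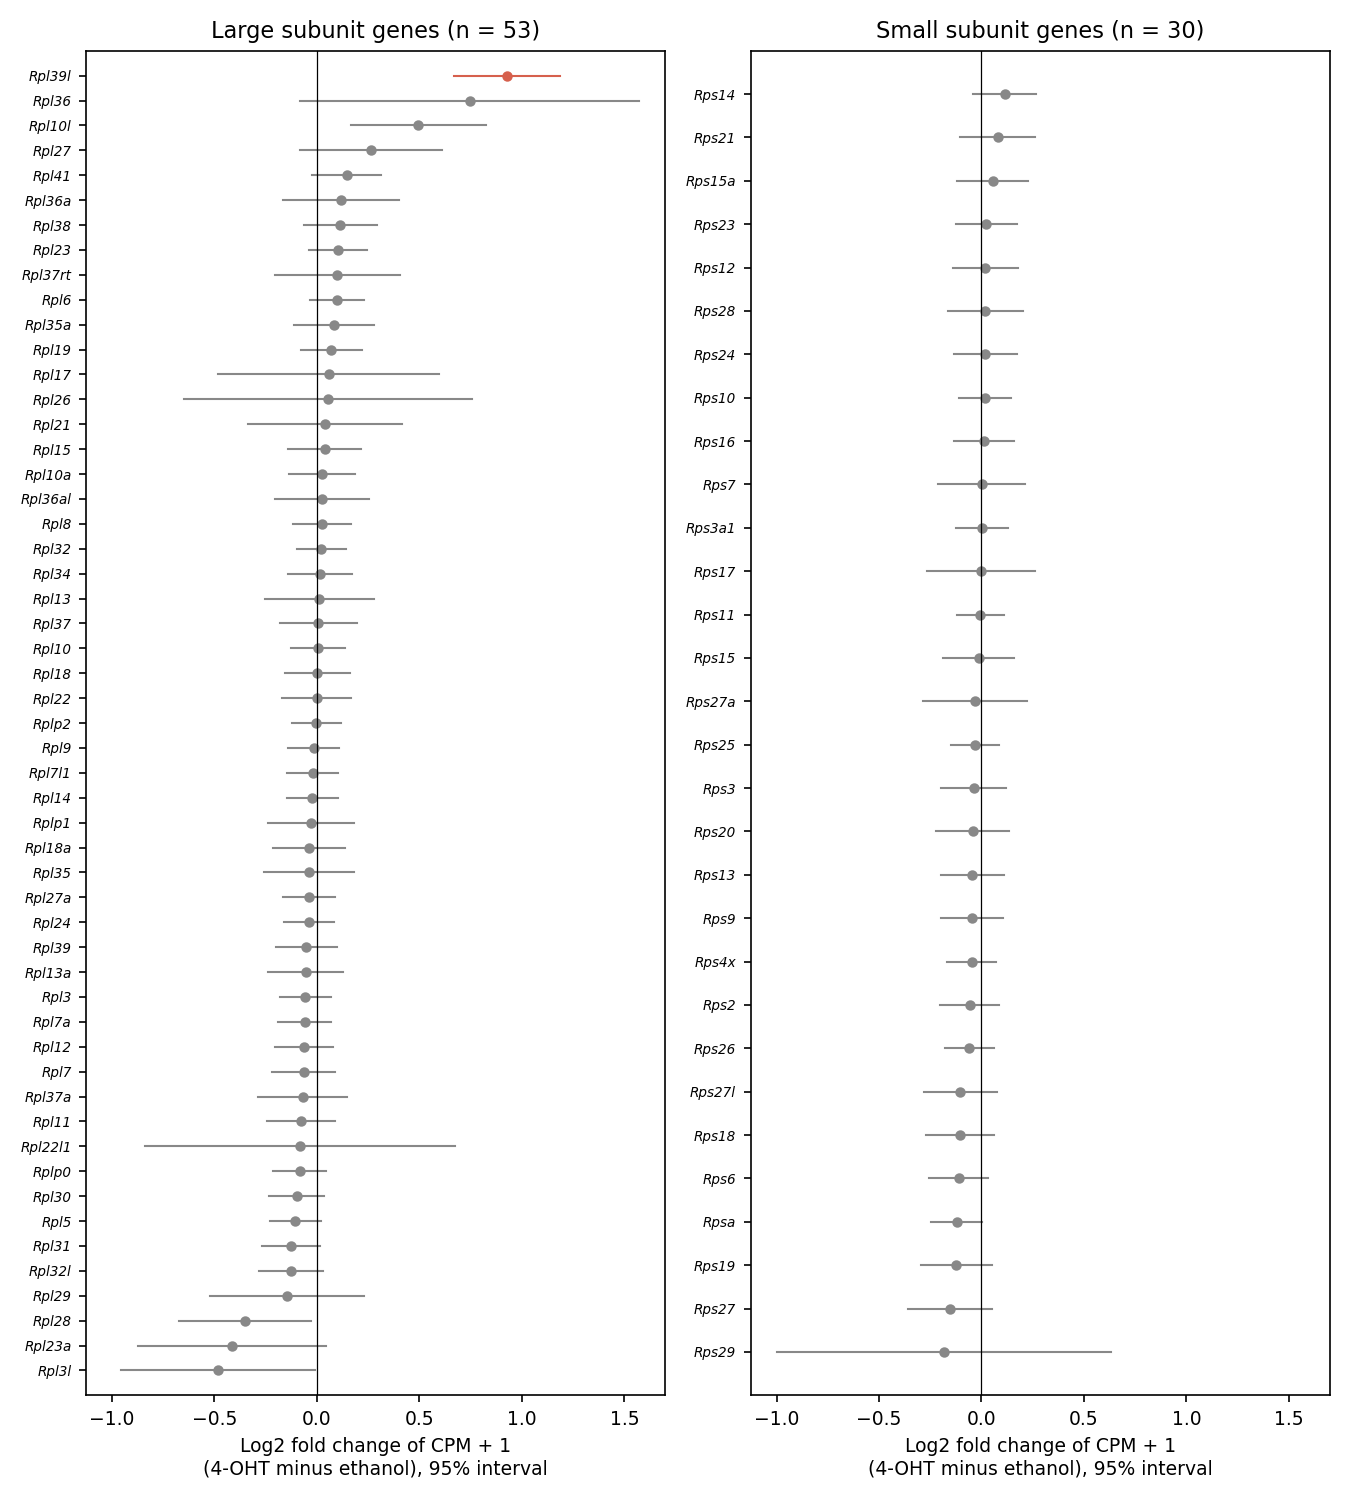
Differences in log2(CPM + 1) between 4-OHT and ethanol (above 0 is higher with 4-OHT) for 53 large subunit and 30 small subunit genes (2 more small subunit genes are not reported here), with the 95% interval from limma as a line. Rpl39l (red, 0.93) is the gene past the threshold, and the widest intervals belong to Rpl36, Rps29, Rpl22l1 and Rpl26.

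Rpl39l and its common partner Rpl39 encode exit tunnel proteins of equal length whose coding sequences differ at 23 of 156 bases (85.3% identical). They are printed because reads must be assigned to one or the other for the rise of Rpl39l to be measured. Capitals mark the bases that differ, 5′ to 3′, from Gencode M21 transcripts.
Rpl39l: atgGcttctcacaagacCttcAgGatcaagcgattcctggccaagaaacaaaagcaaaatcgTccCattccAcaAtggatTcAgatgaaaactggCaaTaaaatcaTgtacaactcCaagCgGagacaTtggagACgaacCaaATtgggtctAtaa
Rpl39: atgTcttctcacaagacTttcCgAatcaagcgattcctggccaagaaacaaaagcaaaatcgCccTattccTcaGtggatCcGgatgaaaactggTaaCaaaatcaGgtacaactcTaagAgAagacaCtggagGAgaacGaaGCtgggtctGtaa
The longest stretch they share is 38 bases. No stretch of 50 bases of the Rpl39l transcript occurs in a transcript of any other annotated gene, whereas 16.2% of the stretches of Rpl39 do, with 8 pseudogenes among the genes that share them. The sources used here give neither the read length nor the handling of reads with several matches.

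Rpl39l (ENSMUSG00000039209, mm10 chromosome 16, 10170226 to 10174911, plus strand) had 16.6 and 15.3 CPM in ethanol and 29.8 and 32.6 CPM with 4-OHT. Both treated libraries were above both control libraries, with 107 and 98 reads in the controls against 210 and 205. The mean rose from 15.9 ± 0.917 to 31.2 ± 1.93 CPM (SD, n = 2 per group), a log2 fold change of 0.93 (SE 0.117, 95% interval 0.67 to 1.19, limma adjusted p = 0.000934). Rpl39 (mm10 chromosome X, 37082520 to 37085402, minus strand) had 185 and 181 CPM in ethanol and 166 and 188 CPM with 4-OHT. Its groups overlapped, and it did not pass (log2 fold change -0.05, limma adjusted p = 0.713). Per kilobase of transcript, Rpl39l made up 9.07% and 8.59% of the summed level of the pair in the ethanol libraries and 16.7% and 16.2% in the 4-OHT libraries. The pair thus remained mostly Rpl39 in all 4 libraries. When either 4-OHT library was left out, the log2 fold change of Rpl39l was 0.87 to 0.99 with a limma adjusted p of 0.14 to 0.156, while edgeR called Rpl39l without any 1 of the 4 libraries. The summed CPM of 9 fibroblast markers did not overlap between the groups (136 and 133 in ethanol, 163 and 157 with 4-OHT). It overlapped only without Col1a2. A part of feeder RNA in the rise of Rpl39l was not tested. In bulk RNA, more cells that express a gene and more RNA per cell cannot be told apart.

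Rpl10l, whose protein replaces the X-linked RPL10 at the subunit interface in male germ cells, had 20.1 and 17.6 CPM in ethanol and 23.3 and 31.2 CPM with 4-OHT. The groups did not overlap, but 4-OHT A stood much nearer to the ethanol libraries than 4-OHT B did. Its log2 fold change of 0.49 (SE 0.148, 95% interval 0.16 to 0.82) did not pass in limma (adjusted p = 0.0671), and edgeR called it (adjusted p = 0.00314), but not without 4-OHT B (adjusted p = 0.218) or without ethanol B (adjusted p = 0.0679). Its share of the pair with Rpl10, per kilobase, was 10.5% and 9.47% in ethanol and 12.0% and 15.5% with 4-OHT. Rpl10 itself had 134 and 132 CPM in ethanol and 134 and 133 CPM with 4-OHT (log2 fold change 0.00481, 95% interval -0.13 to 0.14). The 4 values of Rpl10 lay closer together than those of the other partners described here. The coding sequences of the pair differ at 98 of 645 bases, and 7.60% of the 50-base stretches of Rpl10l occur in another annotated gene, against 92.1% for Rpl10.

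Rpl3l, the paralog of heart and skeletal muscle, was near the limit of these libraries, where it had 9 and 11 reads with ethanol against 6 and 5 after 4-OHT. These are 1.39 and 1.72 CPM against 0.853 and 0.795 CPM, where 3 reads are 0.426 to 0.477 CPM (counting error only, since reads are not independent molecules). Both treated libraries were lower, but the difference did not pass (log2 fold change -0.48, limma adjusted p = 0.199). Rpl3, a protein next to the peptidyl transferase centre, had 267 and 263 CPM in ethanol and 247 and 263 CPM with 4-OHT, and Rpl3l made up between 0.296% and 0.637% of the pair per kilobase. A further paralog, Rps4l, has no symbol in the deposited table and was found by its Entrez number in RefSeq. It had 383 and 339 CPM in ethanol and 357 and 374 CPM with 4-OHT, beside 323 and 338 then 322 and 318 CPM for Rps4x, a small subunit protein gene on the X chromosome. Neither passed, the groups of Rps4l overlapped, and no transcript length was at hand for a level per kilobase of Rps4l.

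The other 4 paralogs did not pass either. Rps27l, a known p53 target, had 274 and 285 CPM in ethanol and 237 and 285 CPM with 4-OHT (log2 fold change -0.10, limma adjusted p = 0.487). It was the higher member of its pair, at 80.0% to 81.3% of the level per kilobase of Rps27l and Rps27 in the 4 libraries, with 47.3, 47.4, 39.8 and 45.3 CPM for Rps27. For Rps27, 98.6% of the 50-base stretches also occur in another annotated gene, and 22.4% do for Rps27l, so this share depends on how such reads were assigned. Rpl36al made up 36.7% and 41.3% of its pair with Rpl36a in ethanol and 37.0% and 37.9% with 4-OHT. Rpl7l1, a nucleolar relative of Rpl7, made up 20.8% to 24.0% of its pair. Rpl22l1, the paralog of Rpl22, had 16.7 and 25.7 CPM in ethanol and 12.1 and 31.3 CPM with 4-OHT. Both 4-OHT values lay outside the range of the ethanol values, on opposite sides, and the sign of its fold change depended on the library: it was 0.57 without 4-OHT A and -0.73 without 4-OHT B (limma, main value -0.08). Rpl22 had 561 and 550 CPM in ethanol and 509 and 605 CPM with 4-OHT.

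**Figure D2:**
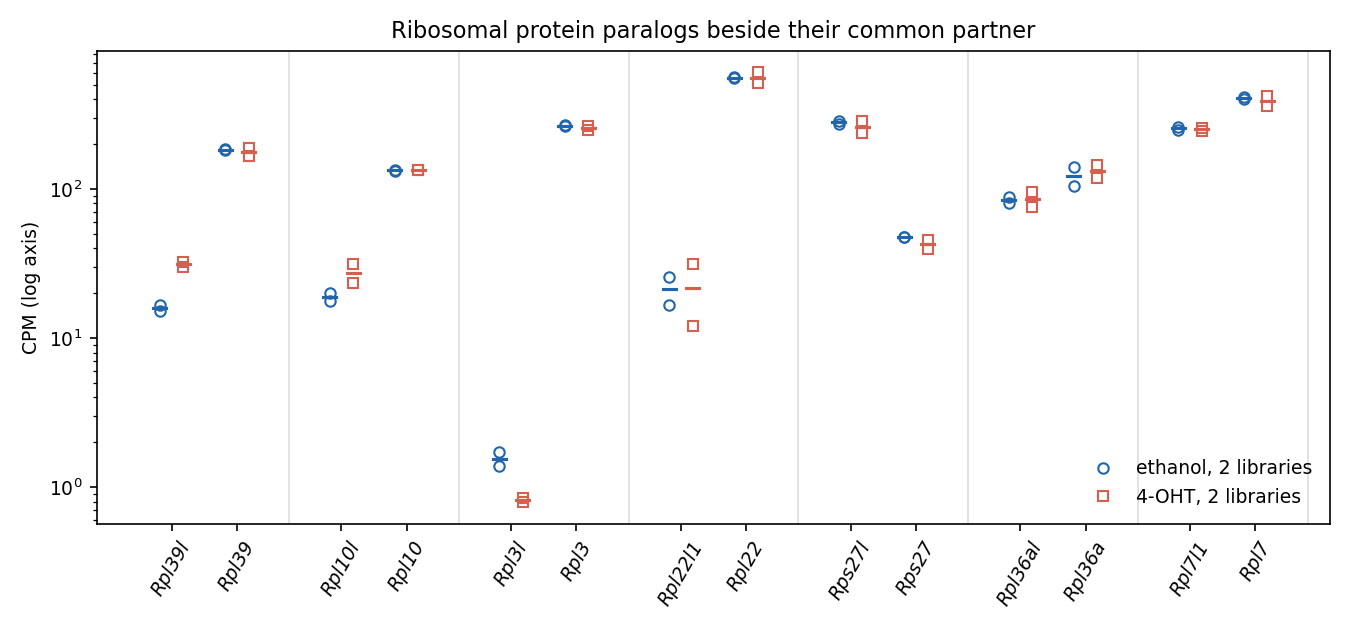
CPM on a log axis of 7 paralogs, each beside its common partner; circles are the 2 ethanol libraries, squares the 2 4-OHT libraries and lines the group means. For Rpl39l the 4-OHT libraries (29.8 and 32.6 CPM) lie above the ethanol libraries (16.6 and 15.3 CPM), and the libraries of Rpl39 overlap.

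Among the large subunit genes, the median log2 fold change was -0.00385 and 1 of 53 was called, against 9.46% of all tested genes in limma. The stalk proteins bind the translation factors that drive elongation, and none of their 4 genes passed (0 also at an unadjusted p under 0.05, in edgeR and in DESeq2). Since edgeR called 15.8% and DESeq2 5.06% of the genes they tested, 0 of 4 says little about the stalk. Rplp0, the base of the stalk, had 1582 and 1493 CPM in ethanol and 1408 and 1493 CPM with 4-OHT. Its groups did not overlap, although ethanol B and 4-OHT B were nearly equal, and its log2 fold change was -0.08 (95% interval -0.21 to 0.05, limma adjusted p = 0.43). The other stalk genes, Rplp1, Rplp2 and Rpl12, lay between -0.06 and -0.00385.

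RPL5 and RPL11 form a particle with 5S ribosomal RNA that, when it is not built into ribosomes, binds MDM2 and thereby stabilises p53. Rpl5 had 302 and 290 CPM in ethanol and 268.9 and 281.6 CPM with 4-OHT. Its groups did not overlap, and its log2 fold change of -0.11 (95% interval -0.23 to 0.02) did not pass (limma adjusted p = 0.289). Rpl11 had 186 and 201 CPM in ethanol and 171 and 196 CPM with 4-OHT, and its groups overlapped (limma adjusted p = 0.588). Of 7 tested common genes of the exit tunnel and its rim, 0 passed, and this list does not hold Rpl39l. Also 0 passed at an unadjusted p under 0.05, in edgeR and in DESeq2. With 9.46% of all tested genes called in limma, 0 of 7 says little about this group. Its log2 fold changes ran from -0.41 in Rpl23a to 0.07 in Rpl19. Rpl4, which reaches into the tunnel, had a deposited group mean of 2859 CPM in ethanol and 2799 CPM with 4-OHT, values of the authors with no spread.

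Among the small subunit genes, the median log2 fold change was -0.03 and 0 of 32 passed. Also 0 passed at an unadjusted p under 0.05, in edgeR and in DESeq2. Of all genes each tool tested, limma called 9.46%, edgeR 15.8% and DESeq2 5.06%. Rps3, at the mRNA entry channel, had 2032 and 1912 CPM in ethanol and 1790 and 2059 CPM with 4-OHT, which overlapped. Rps6, the substrate of S6 kinase, had 129 and 130 CPM in ethanol and 115 and 125 CPM with 4-OHT. Both of its treated libraries were lower, without passing (log2 fold change -0.11, 95% interval -0.25 to 0.03, limma adjusted p = 0.342). Rpsa, the small subunit protein also known as the laminin receptor, had 429 and 414 CPM in ethanol and 375 and 401 CPM with 4-OHT. The groups of Rpsa did not overlap, and its interval reached from -0.25 to 0.00495 (limma adjusted p = 0.228). Rps19, the gene most often mutated in Diamond-Blackfan anaemia, had 242 and 231 CPM in ethanol and 199 and 237 CPM with 4-OHT (limma adjusted p = 0.391). Its groups overlapped. Rps27a, which is made as a fusion with ubiquitin, had 159 and 154 CPM in ethanol and 131 and 178 CPM with 4-OHT, so its treated libraries lay on either side of the controls. In Diamond-Blackfan anaemia, the loss of 1 copy of a ribosomal protein gene impairs red cell formation. Of 18 genes linked to it, 0 passed (also 0 at an unadjusted p under 0.05, in edgeR and in DESeq2). With 9.46% of all tested genes called in limma, 0 of 18 says little about this group. Its log2 fold changes ran from -0.18 in Rps29 to 0.26 in Rpl27.

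Ribosomal proteins whose genes are named differently lay in the same range. Rack1, a scaffold on the head of the small subunit, had 2400 and 2245 CPM in ethanol and 2203 and 2407 CPM with 4-OHT (limma adjusted p = 0.941). Fau, which encodes RPS30 as a fusion with a ubiquitin-like protein, had 341 and 291 CPM in ethanol and 295 and 338 CPM with 4-OHT (limma adjusted p = 0.995). The groups of both genes overlapped.

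Summed over the 85 genes, the level was 27190 and 25439 CPM in ethanol and 24747 and 27377 CPM with 4-OHT. The groups overlapped, and the lowest and the highest sum both came from the treated group. Large subunit genes summed to 14149, 13156, 12984 and 14178 CPM in ethanol A, ethanol B, 4-OHT A and 4-OHT B, and small subunit genes to 13041, 12282, 11763 and 13198 CPM in the same order. The ratio of the large to the small sum was 1.085 and 1.071 in ethanol and 1.104 and 1.074 with 4-OHT, which also overlapped. The median log2 fold change was -0.00385 for the large and -0.0266 for the small subunit, with an SD between libraries of 0.064 and 0.0831. Both medians come from the same libraries, so these SDs do not measure the spread of their difference, which was not tested. With Rpl4 included, the deposited group means summed to 2.92% of all CPM in ethanol and 2.89% with 4-OHT.

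The libraries of a group differed from each other in a shared direction. Ethanol A was higher than ethanol B in 62 of 85 genes, and 4-OHT B was higher than 4-OHT A in 74 of 85. Both held for 57 genes (67.1%), compared with 22.6% of the 2647 genes of at least 100 CPM, 39.0% of 77 mitochondrial ribosomal protein genes and 21.1% of 38 translation factors. The order of the libraries follows the majority of the 85 genes in each group, so a high share among them was built in. The median difference was 0.06 in ethanol and 0.12 with 4-OHT, on the log2(CPM + 1) scale, while the median fold change between the groups was -0.01. Across the 85 genes, which share these libraries, the 2 differences had a Pearson r of 0.29 and a Spearman rho of 0.37. Over the genes of at least 100 CPM they were 0.30 and 0.29, and over the translation factors 0.32 and 0.32. The source of these differences was not tested.

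In 7 genes the libraries of a group differed by at least 1.5-fold. They were Rpl17, Rpl22l1, Rpl26, Rpl27, Rpl28, Rpl36 and Rps29, and those not described above are named because their values stood apart. How many of all tested genes differ as much was not counted. Rpl17 had few reads, 10 and 15 in ethanol and 18 and 10 with 4-OHT, where counting error weighs most. Rpl36 had 169 and 54.1 CPM in ethanol and 147 and 177 CPM with 4-OHT, so 1 ethanol library lay below the other 3. Its log2 fold change was 0.74 (95% interval -0.08 to 1.57, limma adjusted p = 0.259), and it was -0.07 without ethanol B and 1.56 without ethanol A. edgeR, which called Rpl36 higher with all 4 libraries (adjusted p = 0.00402), gave -0.06 without ethanol B. Rps29 had 62.2 and 25.7 CPM in ethanol and 24.6 and 50.2 CPM with 4-OHT, and Rpl26 had 55.3 and 24.3 then 29.6 and 49.3 CPM. For both genes ethanol A and 4-OHT B were the higher libraries, as for the majority above. Rpl28 differed from these: its values were 105 and 109 CPM in ethanol and 102 and 68.0 CPM with 4-OHT, and 1 treated library lay below the other 3. edgeR called it lower (adjusted p = 0.00702), limma did not (log2 fold change -0.35, adjusted p = 0.17), and without 4-OHT B the fold change was -0.06 in both tools.

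**Figure D3:**
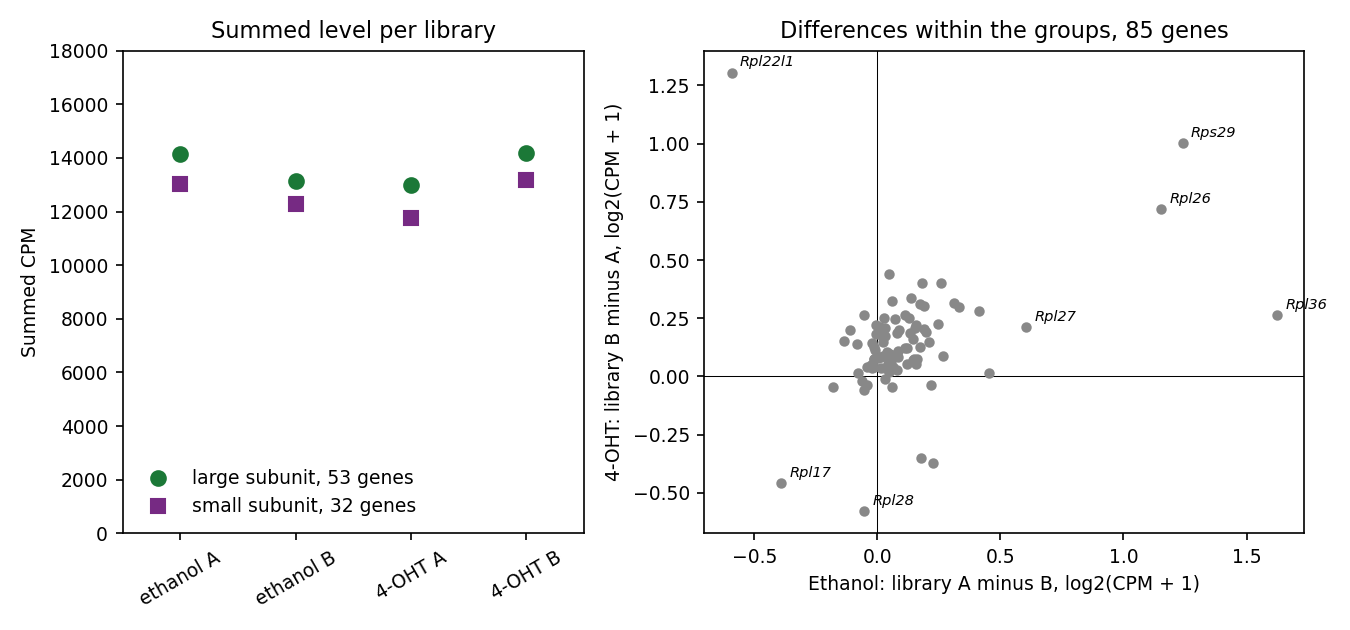
Left, summed CPM of 53 large subunit genes (circles) and 32 small subunit genes (squares) in each library. Right, for each of 85 genes, the difference in log2(CPM + 1) between ethanol A and B against that between 4-OHT B and A; 57 points lie above 0 on both axes, and 7 genes that differ by at least 1.5-fold are named.

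Levels between genes were compared per kilobase of transcript. Among the highest were Rpl8, near the peptidyl transferase centre, at 2525 CPM per kilobase and Rpl4 at 1839. The lowest were Rpl3l at 0.865, Rpl17 at 2.59 and Rpl23a at 7.70 CPM per kilobase. RPL17 and RPL23A surround the tunnel exit, and every ribosome is known to hold both. The genes that lay lowest after Rpl3l thus were common ones, not paralogs.

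Ribosomal protein genes have many processed pseudogenes, and a read that fits several copies may be discarded or assigned to a copy, depending on the counter. Rpl17 shares a 50-base stretch with 50 annotated pseudogenes and Rpl23a with 28, while Rpl8 shares one with 1. Across the 77 common genes, the level per kilobase and the number of such pseudogenes had a Spearman rho of -0.53. With the share of 50-base stretches that occur in another annotated gene, the rho of the level was weaker, at -0.24. The level depends on the transcript chosen per gene, which has 5130 bases in Rps15a and 3706 in Rps20. Without these genes the rho was -0.56 with the number of pseudogenes and -0.31 with the share. The 10 genes with at most 2 such pseudogenes had a median of 1337 CPM per kilobase (268 to 2525), and the 11 genes with at least 20 had a median of 162 (2.59 to 529). Levels of genes with such copies are uncertain because a read may fit several copies. Whether this lowers or raises them, and how far, was not tested. The fold change had a Spearman rho of -0.16 with the number of pseudogenes over 76 genes, and its median was -0.00385 in the genes with at most 2 and -0.06 in those with at least 20.

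**Figure D4:**
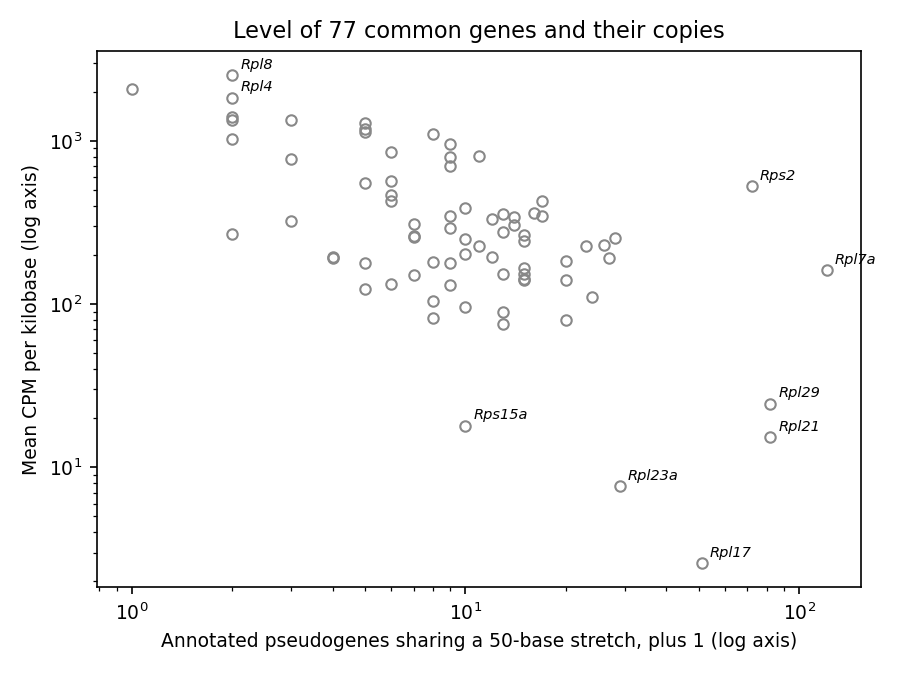
Mean CPM per kilobase against the number of annotated pseudogenes that share a 50-base stretch, plus 1, for 77 common ribosomal protein genes (both axes are log axes). Levels fall from Rpl8 and Rpl4 at the upper left to Rpl17 and Rpl23a at the lower right. Rps2 (71 such pseudogenes) and Rpl7a (120) lie above Rpl17 (50) and Rpl23a (28).

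Sequence around the start site was at hand for 66 of 86 rows (RefSeq promoters, GRCm38.p6, the mm10 build). A strict TOP start, here a C exactly at the annotated start followed by 4 bases that are each C or T, was found in 14 of 66 (21.2%), in 3.06% of all genes of the deposited table with a promoter and in 0 of 68 mitochondrial ribosomal protein genes. The share depends on exact annotation, and a C followed by 6 C or T within 20 bases of the start was found in 54.5% against 23.3%. CCGGAAG on either strand of the whole 300-base promoter, the core bound by ETS factors such as GABPA, was found in 39.4% of the ribosomal protein promoters, 36.8% of the mitochondrial ones and 18.7% of those of the table. The stretches below run from 40 bases before the annotated start through its first 20 bases. They show 3 TOP starts, the start of Rpl26 with its motif, and the starts of Rpl39l and Rpl39, which have no TOP start. Capitals mark the pyrimidine run at the TOP starts, CCGGAAG in Rpl26, and in Rpl39l and Rpl39 the pyrimidine runs counted within 20 bases of the start. Rps6, Rps18, Rpl39l and Rpl39 hold CCGGAAG or its reverse complement elsewhere in the 300-base promoter.
Rps6 (chr4:86857348-86857407, minus strand): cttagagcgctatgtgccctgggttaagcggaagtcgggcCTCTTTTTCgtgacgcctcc
Rpl28 (chr7:4792925-4792984, plus strand): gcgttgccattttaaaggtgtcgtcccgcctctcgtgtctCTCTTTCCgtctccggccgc
Rps18 (chr17:33955646-33955705, minus strand): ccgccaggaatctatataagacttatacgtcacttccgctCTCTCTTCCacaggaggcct
Rpl26 (chr11:68901526-68901585, plus strand): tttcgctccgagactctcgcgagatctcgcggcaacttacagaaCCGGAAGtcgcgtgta
Rpl39l (chr16:10170188-10170247, plus strand): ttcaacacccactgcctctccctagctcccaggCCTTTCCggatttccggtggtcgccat
Rpl39 (chrX:37085203-37085262, minus strand): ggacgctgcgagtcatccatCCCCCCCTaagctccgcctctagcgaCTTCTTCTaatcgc
The 14 genes with a TOP start had log2 fold changes from -0.35 (Rpl28) to 0.11 (Rpl38) with a median of -0.01, and the 51 tested genes with a promoter but no such start had the same rounded median. These matches describe letters alone.

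Small nucleolar RNAs, which guide the modification of ribosomal RNA, are annotated inside 30 of 84 annotated ribosomal protein genes (35.7%), compared with 1.53% of tested genes. The 29 hosts tested had a median log2 fold change of -0.04, and the lowest value was -0.41 (Rpl23a). The 56 other genes had a median of -0.01.

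Other genes of the translation machinery were compared in the same fit. Of 77 mitochondrial ribosomal protein genes, 0 passed in limma, edgeR or DESeq2, 3 had an unadjusted p under 0.05, and the median log2 fold change was -0.01. Of 38 tested translation factors, 0 passed in limma or DESeq2, 7 had an unadjusted p under 0.05, and the median was 0.02. edgeR called 4 of them, 3 higher and 1 lower, against 15.8% of all genes it tested. Over all 14376 tested genes, 9.46% passed in limma, where 3441 had an unadjusted p under 0.05. DESeq2 called 5.06% of the genes it tested. Of 14 regulators of ribosome production and translation, 2 were called in limma (14.3%), both higher. This share is near that of all tested genes and the 12.2% of genes of at least 100 CPM. Myc, a transcription factor known to promote ribosome production, had 54.2 and 56.3 CPM in ethanol and 112 and 108 CPM with 4-OHT, and it rose by 0.98 (SE 0.0688, limma adjusted p = 3.06e-05). Eif4ebp1, which encodes the mTOR-regulated repressor of cap-dependent translation, had 226 and 217 CPM in ethanol and 263 and 271 CPM with 4-OHT, and it rose by 0.27 (limma adjusted p = 0.0133). The groups did not overlap for either gene. Mycn, the Myc relative that is prominent in ESCs, had 379 and 352 then 371 and 378 CPM and did not pass (limma adjusted p = 0.771). Larp1 and Gabpa, whose products act on TOP mRNAs and on the CCGGAAG core, had log2 fold changes of 0.10 and 0.11, and neither passed.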

How the data were processed

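The authors deposited 1 table of mean CPM per group for 14382 genes, with the log2 fold change and adjusted p-value of their comparison, per the file headers. Per the submitters' processing notes, the tools were HISAT2, Trimmomatic, FastQC and edgeR, and the build was mm10. The sources used here give no read counter, annotation or strand setting, so reads of antisense partners cannot be told apart. The authors' log2 fold changes and p-values were left aside, because their rows do not match the CPM columns (Spearman rho 0.018 across genes with the log2 ratio of the means). Each deposited mean CPM is the sum of whole reads from 2 libraries, each times a step. Both steps were found from low values, and 100% of values came out as whole reads (within 0.55 of the last printed digit plus 2e-10 of the value). In ethanol 99.7% and with 4-OHT 99.95% of genes allowed exactly 1 pair of reads. Where several pairs were possible, the one with libraries within 2-fold was taken (5 ribosomal protein genes, among them Rplp0, Rpl8, Rps3 and Rps9), and 6 genes, Rpl4 among them, were not tested. Effective library sizes were 6451759 and 6410293 in ethanol and 7035534 and 6291532 with 4-OHT.

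limma-trend 3.58.1 (R 4.3.3) was run on log2(CPM + 1) of all 14376 tested genes, two-sided and adjusted by Benjamini-Hochberg over these genes, with a threshold of 0.05 and no filter. It was tested on simulated data. edgeR 4.0.16 (quasi-likelihood, filterByExpr) and DESeq2 1.42.0 on recovered reads were alternatives, with other scalings, a pseudocount of 0.1, a minimum mean log2 CPM of 1 and leaving out each library. Transcripts and gene coordinates (1-based) came from Gencode M21, and copies were counted as exact shared stretches of 50 bases between annotated transcripts. Ribosomal protein genes, the other lists and the tests were chosen with earlier results of these data known. Genes were named by rule: the paralogs and partners, called genes, Rplp0, Rpl5, Rpl11, Rps3, Rps6, Rps19, Rps27a, Rpsa, Fau and Rack1, the 3 highest and 3 lowest levels per kilobase, up to 4 called genes of each other list, and Arid1a. Mycn, Larp1, Gabpa, Rplp1, Rplp2, Rpl12 and genes at the ends of a range were named beyond the rule. A few genes that the rule would name are not reported here.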

Additional observations from a re-analysis of the deposited data

How the results depend on the processing

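Other scalings and a pseudocount of 0.1 changed no count of calls by over 1.5 times. A minimum mean log2 CPM of 1 gave 4 ribosomal protein genes higher (Rpl10l, Rpl27, Rpl36 and Rpl39l) and 1 lower (Rpl28), where 15.2% of all genes were called, and 3 translation factors higher and 1 lower. edgeR gave 3 and 1 ribosomal protein genes and 3 and 1 translation factors. Ribosomal protein genes of at least 50 CPM (added after seeing the data) held 0 higher calls, since Rpl39l lies under this level. Leaving out 1 library gave 0 to 5 higher and 0 to 1 lower with limma, and, in edgeR fits added after seeing the data, 1 to 9 higher and 1 to 9 lower. Without ethanol A edgeR called 7 higher and 1 lower (9.8% of all genes), without 4-OHT A 9 higher and 1 lower (12% of all genes), and without 4-OHT B 2 higher and 9 lower (13.3% of all genes), the lone library of a group being assumed to vary like the others. In the same edgeR fits translation factors had 0 to 2 calls in either direction and mitochondrial ribosomal proteins 0 to 1 higher and 0 to 2 lower. The median log2 fold change ran from -0.087 to 0.0514 over all ribosomal protein genes, from -0.0781 to 0.0435 in the large subunit (-0.0786 to 0.0388 in edgeR) and from -0.0943 to 0.0534 in the small subunit, so its sign depended on the library left out. Rpl39l kept a fold change of 0.866 to 0.989 in limma and 0.904 to 1.03 in edgeR. Rpl22l1 changed sign with 1 library left out, from -0.812 to 0.56 in edgeR (adjusted p = 0.000184 without 4-OHT B and 0.00344 without 4-OHT A). The cause of these shifts was not tested. No paired analysis was possible because the columns carry no replicate numbers.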
